A study of Mus musculus with 12 samples.

Results

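The 10 genes followed here encode integrin chains and the proteins that tie them to actin, and they were compared between control and mdx hearts. Their signals come from RNA of heart tissue and not of the muscle cells alone. The members were the integrin subunit genes Itga7, Itga5 and Itgb1, the talin and vinculin genes Tln1 and Vcl, the kinase complex genes Ilk, Lims1 and Parva, and the adaptor genes Pxn and Zyx. They were chosen by name, as the membrane linkage that runs beside dystrophin, and every probe set annotated to exactly 1 of them was kept. This gave 24 of the 22690 probe sets on the array, and 20 of the 24 were bright enough to be tested, with at least 1 for each of the 10 genes. The 4 others, 3 of Itgb1 and 1 of Zyx, were near the background of the arrays, with mean scaled signals of 9.43 to 21.0 over the 12 arrays.

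Integrins are pairs of an alpha and a beta chain that span the cell membrane. Outside the cell they hold laminin or fibronectin, and inside it talin binds the tail of the beta chain and vinculin strengthens the link from talin to actin. Integrin-linked kinase, PINCH-1 and alpha-parvin form a complex on the same tail, and paxillin and zyxin join such adhesions as docking proteins. In striated muscle these proteins gather at costameres, bands that fasten the Z-discs of the outer myofibrils to the membrane, where the dystrophin glycoprotein complex also holds laminin. The alpha-7 beta-1 integrin is the main laminin-binding integrin of mature muscle, and its loss or gain has long been studied in muscle without dystrophin.

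Total RNA of mouse heart muscle was measured on 12 Affymetrix arrays in 4 groups of 3, namely control hearts at 8 weeks, mdx hearts at 8 weeks, control hearts at 10.5 months and mdx hearts at 10.5 months. The mdx mouse carries a point mutation in the dystrophin gene Dmd in every cell and lacks full-length dystrophin in muscle from birth, while the control groups carry no allele or treatment that the labels name. The genotype and strain of the controls, the sex and whether an array held 1 heart or a pool were not stated, so p-values here measure the spread between these arrays only. On the brightest probe set of Dmd the 6 mdx arrays lay between 159 and 286 units of scaled signal and the 6 control arrays between 607 and 839, which follows the labels.

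A keyword in the records names extraocular muscle, so marker genes were read for the tissue. All 10 ventricular myocyte markers were bright enough to test. Of the 10 fast skeletal muscle genes only the creatine kinase gene Ckm, which heart shares, was, and none of the 4 extraocular muscle genes on the array (Myh2, Myh3, Myh8 and Chrng) was, with 189 units as their highest value on any array. The upper end of the signal was stretched on 4 arrays, where the 99th percentile of the deposited values was at least 40770, against at most 32810 elsewhere. These were control replicate 2 and mdx replicates 1 and 2 at 8 weeks, and mdx replicate 3 at 10.5 months, which also had the highest ratio of the 3' to the 5' actin control (1.44, against 1.05 to 1.29 on the other arrays). The same ratio of the Gapdh control was 0.80 on mdx replicate 3 at 10.5 months, within the 0.75 to 0.97 of the other arrays. Signals of atrial myocyte markers differed between arrays too. In controls at 10.5 months replicates 1 and 2 had 3553.8 and 2215.8 units for the atrial myosin light chain gene Myl7 and 2242.4 and 1220.0 for the sarcolipin gene Sln, against 130.5 and 9.13 in replicate 3. The mdx arrays at that age had 150.8 to 284.2 and 11.8 to 91.6. At 8 weeks the controls had 238.6 to 476.1 and 125.5 to 155.2, and the mdx arrays, all higher, 567.3 to 895.4 and 281.0 to 433.7. The part of this in the mdx differences at 8 weeks was not tested. Without control replicates 1 and 2 at 10.5 months 1 control array is left at that age, which is assumed to vary like the other groups. Values of that fit are given for part of the results. Signals below are scaled to a trimmed mean of 500 per array, differences are in log2(signal + 32), and a change means a Benjamini-Hochberg adjusted p below 0.05 over all 14932 tested probe sets in limma. Each gene is given by its brightest probe set unless another is named, and signals are not compared between genes, since each probe set has its own brightness. The brightest probe sets of Itga5, Parva, Lims1 and Pxn end in _s_at, a suffix for probes that may match transcripts of more than 1 gene. Those of Tns1 and Jup, among the listed genes below, end in it too.

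Promoter windows of 250 bases before the start site were read from RefSeq (GRCm38.p6) for 7 of the 10 genes. Itga7, Parva and Pxn had no entry. The window of Vcl is shown because it was the only one of the 7 with a CArG box, the element bound by serum response factor, of which Vcl is a known target. It lies at chr14:20929148-20929397 on the plus strand, and the capitals mark the box, which begins 227 bases before the start:

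Vcl: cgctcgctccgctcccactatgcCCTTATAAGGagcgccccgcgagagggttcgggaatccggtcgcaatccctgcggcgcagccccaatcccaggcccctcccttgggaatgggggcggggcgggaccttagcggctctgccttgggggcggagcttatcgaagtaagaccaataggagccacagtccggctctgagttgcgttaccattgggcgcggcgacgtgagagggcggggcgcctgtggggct

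On either strand, a CArG box was found in 1.47% of the 32851 promoter windows of this length, and the letters GGGCGG, a GC box, in 32.7% of them. The 7 member genes have 10 windows, of which 1 held a CArG box and 6 held GGGCGG. The member windows had a median GC content of 66.8%, against 52.4% over all windows. These are matches of letters in a window and not measured sites.

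In mdx hearts none of the 10 genes rose or fell at either age. At 8 weeks 4 genes had positive and 6 negative differences from controls, with a median of -0.05, against -0.01 over the 8852 genes tested. At 10.5 months 2 were positive and 8 negative, with a median of -0.14, against -0.02 over all genes. Without the 2 control arrays of high atrial signal 3 were positive at that age, with a median of -0.12. By limma 0 of 10 genes passed at 8 weeks, when 2.15% of all genes did, and 0 of 10 at 10.5 months, when 0.0678% did. At an unadjusted p below 0.05 there were 0 and 1 (Tln1), against 17.7% and 7.34% of all genes. The 20 differences had 95% intervals that ran from -0.86 to 0.68 at the outermost, so none of them reached a 2-fold rise or fall, taken interval by interval. Over all 20 member probe sets 0 passed at either age (2.3% and 0.0469% of all probe sets did), and 20 intervals at 8 weeks and 18 at 10.5 months lay within 2-fold. Leaving out 1 array of that age took the median to between -0.19 (without mdx replicate 1) and -0.07 (without mdx replicate 3). At that age mdx replicate 3 had the lowest signal of all 12 arrays for 4 of the 10 genes (Itgb1, Vcl, Pxn and Zyx). Mdx replicate 1 had it for 3 (Itga7, Itga5 and Tln1). The part of the wide signal range or the actin ratio of mdx replicate 3 in this was not tested.

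**Figure D1:**
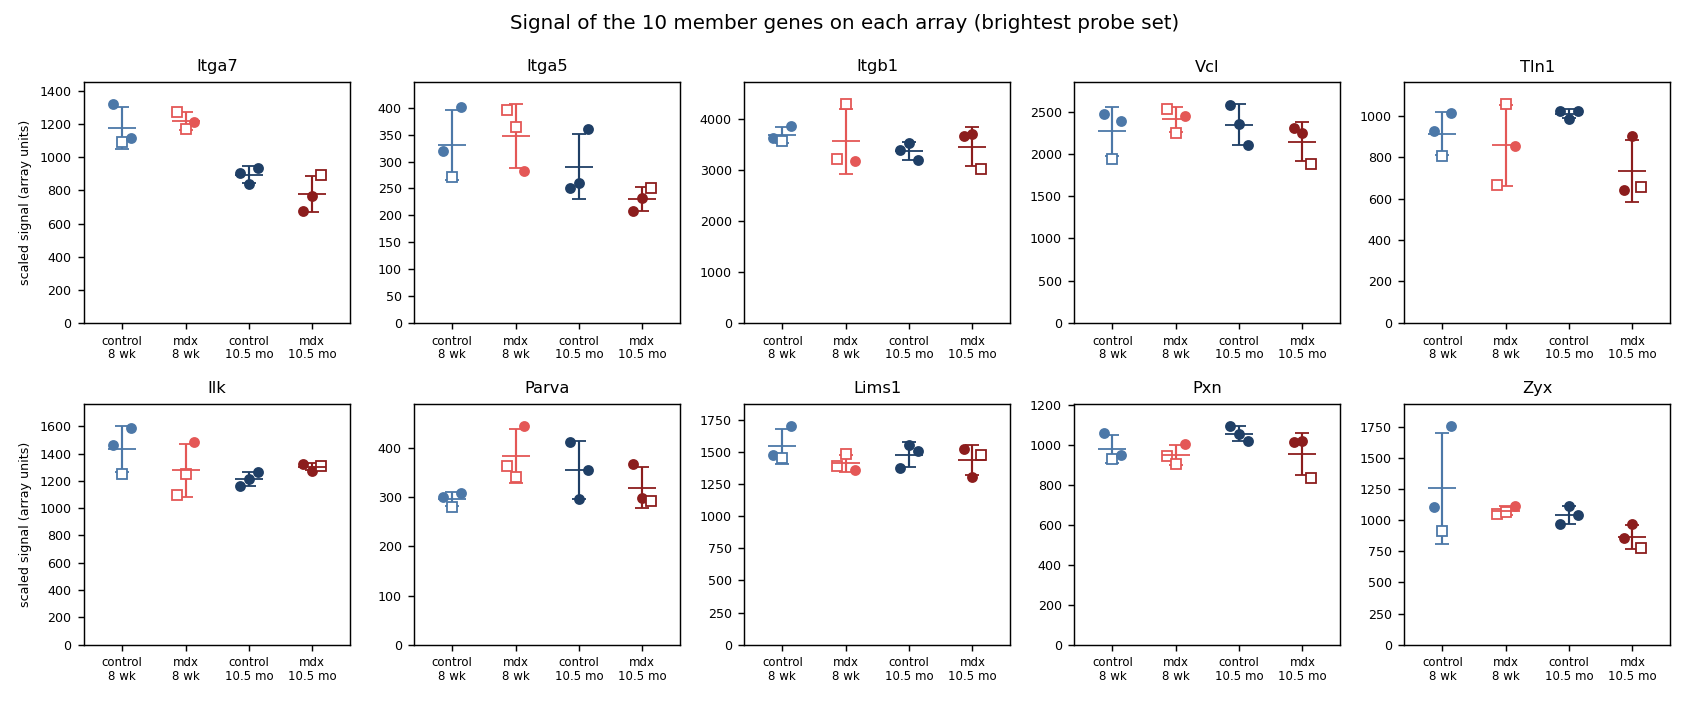
Scaled signal (vertical axes, array units, from 0) of the brightest probe set of each member gene in the 4 groups (horizontal axes). Points are arrays, open squares are the 4 arrays of wide signal range, and bars are the mean and SD of 3 arrays. For Itga7 the 6 arrays at 10.5 months (678 to 939) sit below the 6 at 8 weeks (1090 to 1321), while in most other panels the 4 groups overlap.

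Among the receptor chains, Itgb1, the beta-1 subunit shared by the alpha chains of Itga7 and Itga5, had signals of 3640, 3573 and 3870 on the 3 control arrays against 3220, 4294 and 3173 on the 3 mdx arrays at 8 weeks. At 10.5 months it had 3404, 3541 and 3193 on the 3 control arrays against 3666, 3705 and 3012 on the 3 mdx arrays. The mdx arrays lay on both sides of the controls at each age. The differences were -0.07 ± 0.15 (SE, adjusted p = 0.867, limma) at 8 weeks and 0.03 ± 0.15 (adjusted p = 0.979) at 10.5 months, with 95% intervals of -0.40 to 0.27 and -0.30 to 0.36. A second probe set of Itgb1, 1426918_at, gave 0.01 ± 0.16 and -0.02 ± 0.16. The third, 1427771_x_at, whose suffix marks probes that may bind other transcripts, gave -0.13 ± 0.15 and -0.22 ± 0.15. None of the 3 passed at either age.

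Itga7, the alpha-7 laminin receptor chain, had signals of 1321, 1090 and 1115 on the 3 control arrays against 1277, 1171 and 1215 on the 3 mdx arrays at 8 weeks. The mdx arrays lay inside the range of the controls. At 10.5 months the signals were 907, 837 and 939 on the 3 control arrays against 678, 767 and 891 on the 3 mdx arrays, where 2 of the 3 mdx arrays lay below all controls and the third among them. The mdx differences were 0.06 ± 0.15 (adjusted p = 0.876) and -0.20 ± 0.15 (adjusted p = 0.798), with intervals of -0.26 to 0.37 and -0.51 to 0.11. At both ages the interval thus ends below a rise of 1.3-fold (1.29-fold at 8 weeks and 1.08-fold at 10.5 months). Itga7 has 1 probe set on the array, and its suffix (1418393_a_at) marks a set that reads alternative transcripts of the gene together, so its splice forms cannot be told apart.

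Itga5, the alpha-5 fibronectin receptor chain, was dimmer, with 320, 272 and 401 on the 3 control arrays against 397, 364 and 282 on the 3 mdx arrays at 8 weeks. At 10.5 months it had 251, 260 and 360 on the 3 control arrays against 207, 232 and 252 on the 3 mdx arrays. At 8 weeks the groups overlapped throughout, and at 10.5 months by the highest mdx array alone. The differences were 0.07 ± 0.19 (adjusted p = 0.886) and -0.28 ± 0.19 (adjusted p = 0.773). Its other probe set, 1423268_at, had the opposite sign at both ages, -0.40 ± 0.21 (adjusted p = 0.356) and 0.12 ± 0.21 (adjusted p = 0.932).

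Of the link to actin, Vcl, which encodes vinculin, had 2474, 1939 and 2386 on the 3 control arrays against 2531, 2244 and 2453 on the 3 mdx arrays at 8 weeks. At 10.5 months it had 2583, 2357 and 2101 on the 3 control arrays against 2311, 2246 and 1878 on the 3 mdx arrays. The groups overlapped at both ages, and the lowest value of each age was on an array of wide signal range. The differences were 0.09 ± 0.15 (adjusted p = 0.794) and -0.13 ± 0.15 (adjusted p = 0.881). The dimmer probe set, 1416157_at, gave -0.30 ± 0.26 and -0.01 ± 0.26, neither past the test.

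Tln1, which encodes talin-1, came nearest to a change at 10.5 months, and its probe sets opposed each other. The talin-2 gene Tln2 had no probe set annotated to it alone. The brightest, 1448402_at, gave 1024, 983 and 1021 on the 3 control arrays against 639, 903 and 654 on the 3 mdx arrays, and all 3 mdx arrays lay below all 3 controls. The difference was -0.46 ± 0.19 (95% interval -0.86 to -0.06, adjusted p = 0.666). The other, 1436042_at, gave 195, 308 and 207 on the 3 control arrays against 303, 295 and 533 on the 3 mdx arrays, a difference of 0.58 ± 0.23 (adjusted p = 0.666), with the highest value on mdx replicate 3. Averaged over both probe sets the difference of Tln1 was 0.06 (adjusted p = 0.954). At 8 weeks the brightest probe set gave 926, 803 and 1010 on the 3 control arrays against 664, 1055 and 852 on the 3 mdx arrays (-0.11 ± 0.19, adjusted p = 0.808), and the other gave 0.01 ± 0.23.

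**Figure D2:**
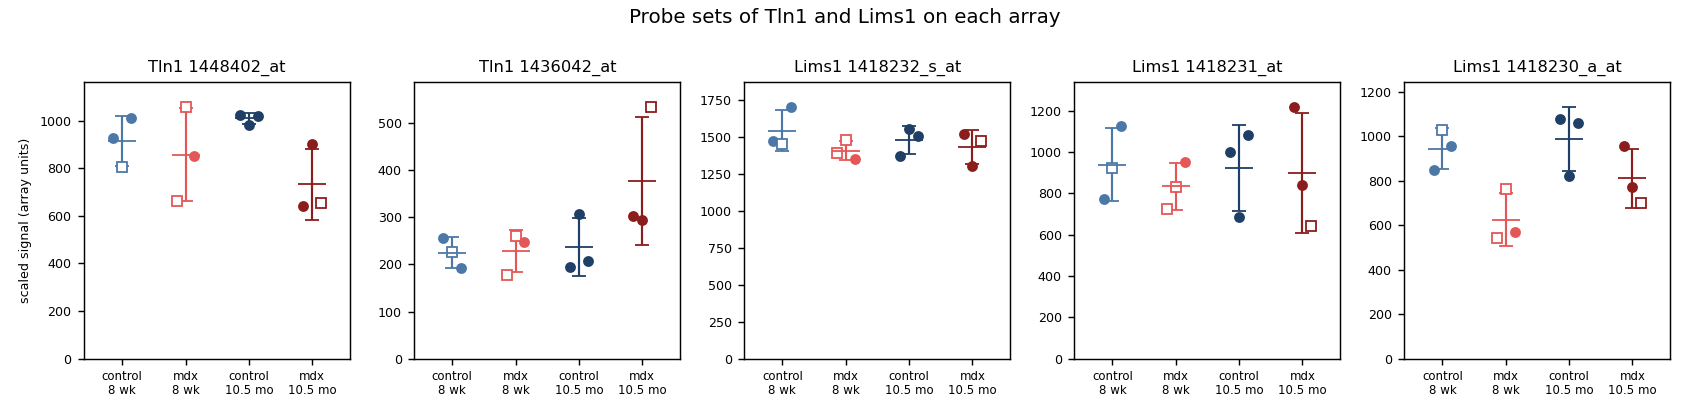
Scaled signal (vertical axes, array units, from 0) of the tested probe sets of Tln1 and Lims1 by group, drawn as points for arrays (open squares for those of wide signal range) with mean and SD. At 10.5 months the mdx arrays of Tln1 lie low on 1448402_at and high on 1436042_at, and at 8 weeks those of Lims1 lie below all controls on 1418230_a_at (541 to 763, against 847 to 1028) but not on the other probe sets of the gene.

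In the kinase complex, Ilk, the gene of integrin-linked kinase, had 1460, 1249 and 1586 on the 3 control arrays against 1100, 1250 and 1484 on the 3 mdx arrays at 8 weeks. At 10.5 months it had 1161, 1214 and 1261 on the 3 control arrays against 1326, 1275 and 1309 on the 3 mdx arrays. The groups overlapped at 8 weeks, and at 10.5 months every mdx array was above every control by a small margin. The differences were -0.16 ± 0.15 (adjusted p = 0.607) and 0.10 ± 0.15 (adjusted p = 0.903).

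Parva, which encodes alpha-parvin, had 301, 281 and 309 on the 3 control arrays against 364, 342 and 445 on the 3 mdx arrays at 8 weeks, with no overlap. The difference of 0.33 ± 0.16 did not pass (95% interval -0.02 to 0.68, adjusted p = 0.304), and the other probe set, 1416818_at, gave -0.26 ± 0.24. At 10.5 months Parva had 413, 296 and 355 on the 3 control arrays against 367, 298 and 292 on the 3 mdx arrays (-0.13 ± 0.16, adjusted p = 0.881). The other probe set, 1416818_at, had the opposite sign at that age too, 0.17 ± 0.24. Groups that do not overlap were common on these arrays. At 8 weeks the mdx arrays lay above all controls in 9.53% of genes and below them in 10.5%, against 1 and 0 of the 10 members. At 10.5 months they lay above in 7.93% and below in 10.8%, against 1 (Ilk) and 2 (Tln1 and Pxn) of the 10.

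Lims1, the gene of the adaptor PINCH-1, varied least of the 10 within groups (SD of 0.10 on the log2 scale, against a median of 0.24 over all tested probe sets). Its brightest probe set, 1418232_s_at, gave 1477, 1455 and 1702 on the 3 control arrays against 1392, 1481 and 1356 on the 3 mdx arrays at 8 weeks, and 1373, 1556 and 1509 against 1525, 1303 and 1478 at 10.5 months. These groups overlapped at both ages (-0.13 ± 0.14, adjusted p = 0.669, and -0.04 ± 0.14, adjusted p = 0.959). Another probe set of Lims1, 1418230_a_at, gave 847, 1028 and 957 on the 3 control arrays against 541, 763 and 569 on the 3 mdx arrays at 8 weeks. Its difference of -0.58 ± 0.18 had the lowest p of any member probe set at a single age but did not pass (unadjusted p = 0.00621, adjusted p = 0.114, limma), and at 10.5 months it was -0.27 ± 0.18 (adjusted p = 0.769). The set 1418231_at lay between, at -0.16 ± 0.24 and -0.06 ± 0.24.

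Of the docking proteins, Pxn, which encodes paxillin, had 1057, 927 and 947 on the 3 control arrays against 941, 904 and 1001 on the 3 mdx arrays at 8 weeks (-0.04 ± 0.14, adjusted p = 0.910). At 10.5 months it had 1093, 1052 and 1019 on the 3 control arrays against 1013, 1017 and 831 on the 3 mdx arrays, all below the controls (-0.15 ± 0.14, adjusted p = 0.848). Its probe set 1424027_at was at -0.29 ± 0.19 and -0.15 ± 0.19. The dimmest, 1426085_a_at, was at 0.32 ± 0.29 and -0.52 ± 0.29, and none passed.

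Zyx, which encodes zyxin, a LIM protein of adhesions and stressed actin fibres, varied most within groups (SD of 0.26). It had 1103, 912 and 1759 on the 3 control arrays against 1050, 1066 and 1116 on the 3 mdx arrays at 8 weeks, and the value of control replicate 3 stood apart. That array also held the highest of the 12 signals for Itga5, Ilk and Lims1. At 10.5 months Zyx had 970, 1115 and 1045 on the 3 control arrays against 858, 970 and 775 on the 3 mdx arrays, where the highest mdx array and the lowest control array stood at nearly the same signal. The differences were -0.16 ± 0.20 (adjusted p = 0.718) and -0.26 ± 0.20 (adjusted p = 0.812).

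**Figure D3:**
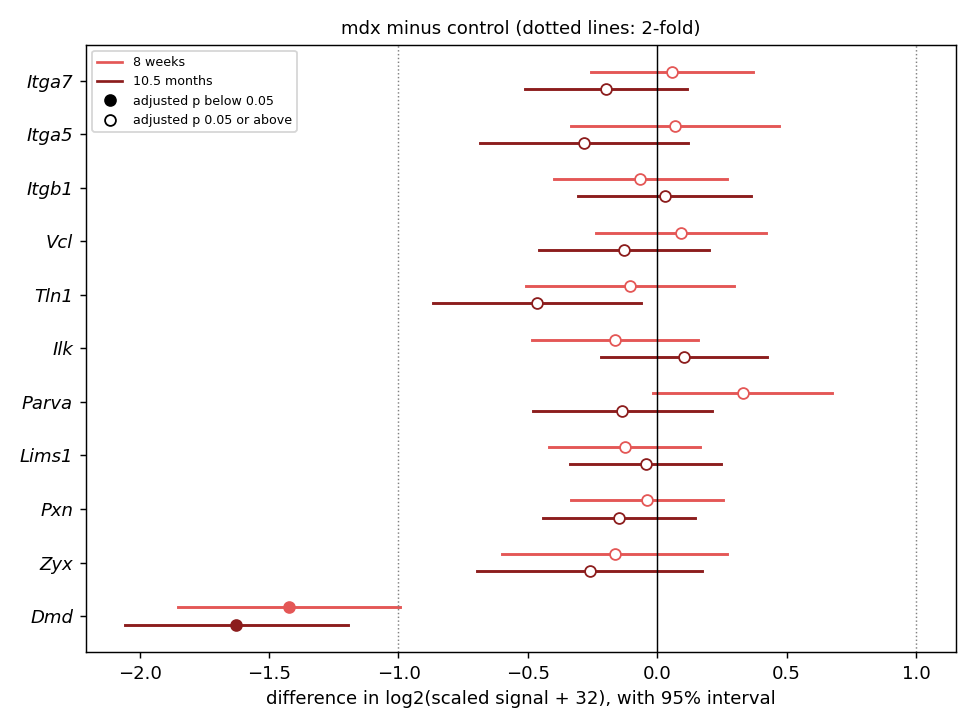
Difference between mdx and control hearts in log2(scaled signal + 32) (horizontal axis) for the 10 member genes and, for scale, Dmd (vertical axis). Points are estimates of the fit, lines are 95% intervals, filled points passed the test and dotted lines mark 2-fold. The interval of every member lies inside the dotted lines at both ages, while Dmd stands at -1.42 and -1.63.

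Averaged over both ages, 9 of the 10 genes had negative mdx differences, with a median of -0.08, against -0.02 over all genes. None passed (0.169% of all genes did), and by brightest probe set Tln1 was the only gene with an unadjusted p below 0.05, at -0.28 ± 0.13 (unadjusted p = 0.0492, adjusted p = 0.365, limma), against 13.3% of all genes. The other probe set of Tln1 was at 0.30 ± 0.16, and the mean of both was at 0.00635. Of the dimmer probe sets, Lims1 1418230_a_at had the smallest p in this mean, at -0.43 ± 0.13 (unadjusted p = 0.00482, adjusted p = 0.175). The mdx differences at the 2 ages were also set against each other. They did not differ for any member by the test (0 of 10 passed, 0.158% of all genes did, and 0 of 10 had an unadjusted p below 0.05, against 12% of all genes). The widest gap was that of Parva (-0.46 ± 0.23, adjusted p = 0.438). Different probe sets of a gene often disagreed at these small sizes. Of the 7 genes with more than 1 tested probe set, only Lims1 had all of them on the same side at 8 weeks, and 3 genes (Vcl, Lims1 and Pxn) did at 10.5 months.

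With age 1 of the 10 members, Itga7, passed in mdx hearts and none in controls, a share in mdx hearts near the 11.3% of all genes. For Itga7 each of the 6 arrays at 10.5 months was below each of the 6 at 8 weeks, which held for 2.07% of all genes and for no other member. In mdx hearts it went from 1221 ± 53.2 (SD, n = 3) to 779 ± 107, a fold of 0.644 (log2 -0.64 ± 0.15, adjusted p = 0.0164, limma). In controls it went from 1176 ± 127 to 894 ± 51.7, a fold of 0.769, which did not pass (-0.38 ± 0.15, adjusted p = 0.322). The test of one fall against the other did not pass (-0.26 ± 0.21, 95% interval -0.70 to 0.19, adjusted p = 0.652). In the mdx comparison 11.3% of all genes passed and 1 of the 10 members did, and in controls 0.158% and 0.

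The call in mdx hearts was lost without mdx replicate 2 at 10.5 months (-0.63, adjusted p = 0.0593) and when only the 6 mdx arrays were fitted (adjusted p = 0.0742). The mean of the 2 age differences was therefore fitted as well, a comparison added after the values were seen. There Itga7 was at -0.51 ± 0.10 (95% interval -0.73 to -0.29, fold 0.704, adjusted p = 0.0112). It passed in 20 of the 21 alternatives run for this mean, with adjusted p from 0.00487 to 0.0333, the 12 that leave out an array among them. It did not pass without both control arrays of high atrial signal (-0.47 ± 0.14, adjusted p = 0.139), while the fall in mdx hearts alone kept its call there (adjusted p = 0.0431). With all 12 arrays 11.5% of all genes passed in this mean, and Itga7 alone of the 10 members.

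**Figure D4:**
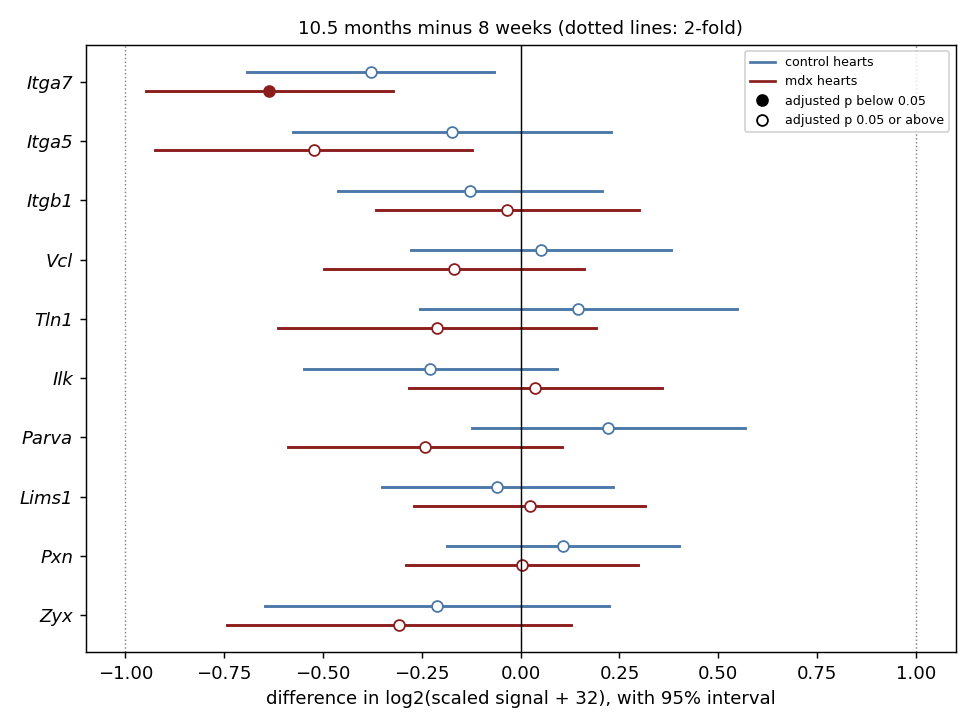
Difference between hearts at 10.5 months and at 8 weeks in log2(scaled signal + 32) (horizontal axis) for the 10 member genes (vertical axis), in controls and in mdx hearts. Points are estimates, lines are 95% intervals, filled points passed the test and dotted lines mark 2-fold. Itga7 in mdx hearts (-0.64) is the only filled point, and its interval in controls (-0.69 to -0.07) also lies below 0.

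The partner chain Itgb1 did not pass with age. Its control arrays at 10.5 months lay below those at 8 weeks without overlap. In controls this held for 2 of the 10 members (Itga7 and Itgb1), and for 11.3% of all genes. The differences of Itgb1 were -0.13 ± 0.15 in controls (adjusted p = 0.785) and -0.03 ± 0.15 in mdx hearts (adjusted p = 0.907), and in the mean of both its interval was -0.32 to 0.16. Its dimmer probe set 1427771_x_at was at -0.28 ± 0.11 in that mean (adjusted p = 0.0964). Itga5 was lower with age in mdx hearts without overlap (282 to 397 against 207 to 252), but its difference did not pass (-0.52 ± 0.19, adjusted p = 0.0821). It passed without mdx replicate 3 at 8 weeks (-0.65, adjusted p = 0.0472), and its other probe set gave -0.10 ± 0.21. In controls the brightest probe set of Itga5 was at -0.17 ± 0.19 and the other at -0.62 ± 0.21 (adjusted p = 0.278). For the 7 genes downstream of the receptor, age differences in mdx hearts lay between -0.31 (Zyx) and 0.04 (Ilk), and in controls between -0.23 (Ilk) and 0.22 (Parva), with none past the test, each by its brightest probe set. Some dimmer probe sets went further or the other way. Tln1 1436042_at had 178, 260 and 247 at 8 weeks against 303, 295 and 533 at 10.5 months in mdx hearts, without overlap (0.62 ± 0.23, adjusted p = 0.0994). Lims1 1418230_a_at was at 0.36 ± 0.18 there and Pxn 1426085_a_at at -0.36 ± 0.29, and in controls Pxn 1426085_a_at was at 0.48 ± 0.29. None of the 10 dimmer probe sets passed with age in either genotype. In mdx hearts, by brightest probe set, 3 of the 10 members (Itga7, Itga5 and Zyx) had all arrays at 10.5 months below all at 8 weeks, and 15.6% of all genes did.

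The marker lists were read for mdx against control too, at 8 weeks and then 10.5 months. Positive differences were held by 10 and 8 of 10 ventricular myocyte markers (medians 0.34 and 0.21). Fibroblast markers had 9 and 9 of 10 (0.30 and 0.43). Of 8 endothelial markers 1 and 1 were positive (-0.12 and -0.22), and of 8 macrophage markers 5 and 8 (0.11 and 0.26). Atrial markers had 4 and 1 of 4 (1.07 and -1.86). Smooth muscle and pericyte markers had 4 and 4 of 7 (0.08 and 0.05). In the mean of both age differences 9 of 10 ventricular myocyte markers were negative (median -0.30, 1 passed, Ryr2). Their summed signal ran from 167320 to 329974 in controls and 151532 to 471447 in mdx hearts at 8 weeks, and from 161926 to 193864 and 189069 to 240922 at 10.5 months, with the highest sums on arrays of wide signal range. Of the 10 fibroblast markers 7 were positive (median 0.27, 3 passed), with sums of 18601 to 22360 and 23452 to 26807 at 8 weeks and 21622 to 22536 and 25344 to 34772 at 10.5 months. Of the 8 endothelial markers 6 were negative (median -0.31, 2 passed), with sums of 8772 to 10496 and 7486 to 9744 at 8 weeks and 7426 to 8447 and 6167 to 7599 at 10.5 months. Of the 4 atrial markers 2 were positive in that mean (median 0.06, 1 passed, Nppa), all 4 were positive in controls and 3 were negative in mdx hearts. Their sums were 4193 to 6291 and 11848 to 12578 at 8 weeks and 4926 to 22195 and 11587 to 18087 at 10.5 months. Nppa made up most of the sum on every array and had 10868, 15942 and 17080 units in mdx hearts at 10.5 months. On those arrays Myl7, Myl4 and Sln reached at most 284, 632 and 91.6 units, so the sum does not measure atrial content by itself. Of the 8 macrophage markers 5 were positive (median 0.09, 0 passed), and of the 7 tested smooth muscle and pericyte markers 5 were negative (median -0.12, 1 passed). No marker of these lists was at 0. In mdx against control 2 passed, both smooth muscle and pericyte markers that were lower at 8 weeks. The part of the markers in the fall of Itga7 or in the mdx differences of the members was not tested. In whole tissue a smaller share of the cells that express a gene and less of its RNA in each cell cannot be told apart. With the signal range as a block Itga7 kept its call in mdx hearts (-0.62, adjusted p = 0.0215). Without the 4 wide arrays it was at -0.73 (adjusted p = 0.0578), with 1 mdx array left at 8 weeks, which is assumed to vary like the other groups.

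The wider adhesion machinery was read from lists of other integrin chains, adaptors, costamere proteins, matrix ligands and leukocyte integrins. The costamere list, whose members are called costamere genes below, also holds genes of junctions between cells, such as Cdh2, Ctnna1 and Jup. Of 85 genes listed, 68 were on the array and 58 were tested. At 8 weeks 1 of 58 passed in mdx hearts, the integrin chain gene Itga3, which pairs with beta-1 (287.7, 283.6 and 260.1 in controls, 455.2, 431.5 and 507.7 in mdx hearts). All mdx arrays were above all controls, at 0.68 ± 0.16 (adjusted p = 0.0490), but this call was lost in 16 of the 22 alternatives, among them each of the 6 that leave out an array at 8 weeks (adjusted p = 0.0665 to 0.153). At an unadjusted p below 0.05 there were 6 of 58, a share below the 17.7% of all genes.

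No other listed gene passed in mdx hearts at 8 weeks. The smallest p in each of the other 4 lists belonged to Bcar1, a docking protein of focal adhesions (0.57 ± 0.17, adjusted p = 0.0978), the N-cadherin gene Cdh2 (0.39 ± 0.17, adjusted p = 0.261), the laminin chain gene Lama5 (0.42 ± 0.17, adjusted p = 0.224) and the leukocyte integrin gene Itgax (0.20 ± 0.16, adjusted p = 0.558). By list, positive differences were held by 6 of 8 integrin chains (median 0.09), 9 of 25 adaptors (-0.10), 12 of 12 costamere genes (0.20), 4 of 11 matrix ligands (-0.06) and 1 of 2 leukocyte integrins (0.04), against 48.3% of all genes. The costamere list holds some of the brightest probe sets, such as Des and Actn2, and its summed signal was 89957, 105056 and 96335 on the 3 wide arrays at 8 weeks but 63924 to 65067 on the 3 others. The part of the signal range in the differences of this list was not tested.

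At 10.5 months 0 of 58 listed genes passed in mdx hearts, with 4 at an unadjusted p below 0.05, against 7.34% of all genes. The smallest p in each list belonged to Itga3 (-0.27 ± 0.16, adjusted p = 0.747), the PINCH-2 gene Lims2 (-0.32 ± 0.15, adjusted p = 0.674), the plectin gene Plec (-0.63 ± 0.20, adjusted p = 0.576), Lama5 (-0.52 ± 0.17, adjusted p = 0.587) and Itgax (0.21 ± 0.16, adjusted p = 0.807). Positive differences were held by 4 of 8 integrin chains (median 0.03), 7 of 25 adaptors (-0.10), 4 of 12 costamere genes (-0.07), 2 of 11 matrix ligands (-0.14) and 2 of 2 leukocyte integrins (0.19), against 46.1% of all genes.

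With age in mdx hearts 8 of the 58 listed genes fell and 0 rose, while 5.59% of all genes fell and 11.3% passed in either direction. They were Itga3 (-0.69 ± 0.16, adjusted p = 0.0190), the adaptor genes Bcar1 (-1.18 ± 0.17, adjusted p = 0.00226) and Tns1, the gene of tensin-1 (-0.96 ± 0.24, adjusted p = 0.0246), and the cytoskeletal linkers Plec (-0.97 ± 0.20, adjusted p = 0.0126) and Jup, the gene of plakoglobin (-0.70 ± 0.15, adjusted p = 0.0135). The remaining 3 encode basement membrane proteins, namely the laminin chains Lama5 (-0.76 ± 0.17, adjusted p = 0.0165) and Lamb2 (-0.78 ± 0.16, adjusted p = 0.0101) and perlecan, Hspg2 (-0.75 ± 0.17, adjusted p = 0.0170). Bcar1 went from 669.1, 784.8 and 810.4 at 8 weeks to 354.8, 339.3 and 258.5 at 10.5 months. By list, 6 of 8 integrin chains (median 0.08), 11 of 25 adaptors (-0.01) and 1 of 12 costamere genes (-0.37) had positive differences. So did 5 of 11 matrix ligands (median -0.09, highest 0.58) and 2 of 2 leukocyte integrins (0.08), against 49.2% of all genes.

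Single arrays decided some of these calls. Without mdx replicate 2 at 10.5 months Itga3, Tns1, Lama5 and Hspg2 lost theirs (adjusted p = 0.0669, 0.0904, 0.0616 and 0.0589), as they did without mdx replicate 3 (0.0653, 0.0777, 0.0585 and 0.0568). Tns1 also lost its call without mdx replicate 1 or 2 at 8 weeks (0.0757 and 0.0611), and Hspg2 without replicate 2 (0.0523). Without the 4 wide arrays Tns1, Plec, Lama5 and Hspg2 stood at -0.35, -0.51, -0.48 and -0.44 and did not pass, and Itga3 did not either (-0.68, adjusted p = 0.0931). With only the 6 mdx arrays fitted, Itga3, Tns1, Plec, Jup, Lama5 and Hspg2 missed the threshold (adjusted p = 0.0529 to 0.0771). Without the 2 control arrays of high atrial signal Tns1 missed it (adjusted p = 0.0530). Bcar1 missed it as the mean of its probe sets (-0.46, adjusted p = 0.0506). In control hearts 0 of 58 passed with age (limma), and 3 had an unadjusted p below 0.05, against 11.8% of all genes. The smallest p in each list there belonged to the alpha-v integrin gene Itgav (0.27 ± 0.16), the alpha-actinin-4 gene Actn4 (-0.32 ± 0.13), the ankyrin gene Ank3 (0.50 ± 0.17), Hspg2 (-0.59 ± 0.17) and the beta-2 integrin gene Itgb2 (-0.14 ± 0.25), with adjusted p of 0.210 to 0.871.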

How the data were processed

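The values the authors deposited are linear probe set intensity, scaled before deposit to a common level, since the trimmed mean (2% off each end) was 1500.6 to 1500.9 on every array. A standard Affymetrix protocol was used per the labels; the software that summarised the probes was not given in the sources used here. Groups and replicate numbers came from the sample titles.

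Gene names came from the annotation of the platform (20393 with 1 gene, symbols updated for 20364). Arrays were rescaled to a trimmed mean of 500, 32 was added, and log2 was taken, so changes of dim genes are understated. The 64 control probe sets and those with a mean below 100 were left out. In R 4.3.3, limma 3.58.1 (lmFit, eBayes) took 4 group means from all 12 arrays, with 8 residual and 5.20 prior degrees of freedom, and was tested on simulated data. There were 6 planned comparisons and 1 added one. Adjusted p-values are Benjamini-Hochberg over 14932 probe sets, and intervals are 95% and unadjusted. A gene is represented by its brightest tested probe set. All tested member probe sets are reported for mdx against control at each age. From each pathway list the genes called are named, or the one with the smallest p. The members and lists were chosen with earlier results of these data known. The number of arrays limits the precision.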

Additional observations from a re-analysis of the deposited data

Results flagged for a closer look

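Reversals were looked for only among the 10 members, Dmd and the listed genes named above, which had been picked by their p-values in these comparisons. For 3 of these listed genes every array moved one way in 1 contrast and the opposite way in its counterpart. The mdx arrays of Bcar1 and Lama5 lay above all controls at 8 weeks and below all controls at 10.5 months. The mdx difference at 10.5 months minus that at 8 weeks was -0.84 ± 0.24 for Bcar1 (SE, adjusted p = 0.185, limma) and -0.94 ± 0.25 for Lama5 (adjusted p = 0.161). The arrays of Itga3 at 10.5 months lay below all those at 8 weeks in mdx hearts and above all of them in controls, and its difference was -0.95 ± 0.23 (adjusted p = 0.140). None of these 3 differences passed the test. Groups without overlap, in either direction, were found in 20.1% of all genes for mdx at 8 weeks and 18.7% at 10.5 months. With age they were found in 23.6% in controls and 31.1% in mdx hearts. The share of all genes that reversed in this way was not computed.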

How the results depend on the processing

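Each of the 70 results of member genes was recomputed under up to 22 alternatives, 12 of which left out 1 array, giving 1510 values. Of these 91 had the other sign and 5 were on the other side of the threshold. The count of members that passed with age in mdx hearts, 1 in the report, was 0 when only the arrays of the groups compared were fitted and 0 without the 4 arrays of wide signal range, an alternative chosen after seeing the data. With 1 array left out it ran from 0 (without mdx replicate 2 at 10.5 months) to 2 (without mdx replicate 3 at 8 weeks). Without the 2 arrays of high atrial signal, also chosen after seeing the data, the count for the mean of both age differences went from 1 to 0, and Dmd at 10.5 months did not pass (-1.58, adjusted p = 0.388). Averaging a gene's probe sets turned Tln1 to 0.0594 for mdx against control at 10.5 months, 0.00635 over both ages, 0.11 between ages and 0.20 with age in mdx hearts. It also turned Itga5 to 0.0832 and Vcl to 0.0348 between ages and Parva to -0.0201 with age in controls. Zyx with age in controls ran from -0.41 to 0.0525 with 1 array left out, the last without control replicate 3 at 8 weeks. Fitting only the arrays compared gives no value for means over ages or genotypes or for differences between ages. The replicate numbers were not found to pair the samples (correlations of same-numbered deviations -0.129 to 0.135). With the replicate block the calls over all probe sets went from 343 to 101 at 8 weeks and from 7 to 3 at 10.5 months for mdx, and from 22 to 11 in controls and 1706 to 1229 in mdx hearts with age. The members' counts stayed at 0, 0, 0 and 1, and Itga3 with age in mdx hearts lost its call (adjusted p = 0.0553). With only the arrays compared, 343 became 23 and 1706 became 565. The cause of these changes was not tested. With 3 arrays a group the precision is limited, and among member probe sets the SE was widest for Pxn 1426085_a_at (0.29) and Vcl 1416157_at (0.26).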
